A study of Mus musculus with 16 samples.

Results

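The 10 genes described here are the fibroblast growth factor (FGF) receptors Fgfr1, Fgfr2 and Fgfr3, the FGF ligands Fgf2, Fgf9 and Fgf18, and the feedback and target genes Spry2, Spry4, Dusp6 and Etv5. They were chosen by name, as every probe that the platform annotation pairs with 1 of these symbols. They were measured by 16 of the 25697 probes in calvaria (skull roof bone) of male mice at postnatal day 7. The 4 genotypes were each represented by arrays from 4 mice. Wild-type mice are written WT. R-Het mice were Runx2+/-, A-KO mice were Axin2-/-, and A-KO:R-Het mice were Axin2-/- and Runx2+/-. Neither defect is described in the labels as limited to a tissue, and the labels name no further allele or agent. An A-KO array is labelled as damaged and was left out, so 15 arrays were used, with 4, 4, 3 and 4 in that order of genotypes. Runx2 encodes a transcription factor that osteoblasts need, and Axin2 encodes a feedback inhibitor of Wnt signalling. The design asks how the defects act singly and together.

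FGFs are secreted proteins that bind receptor tyrosine kinases together with heparan sulphate and act largely through the Ras, MEK and ERK kinases. The pathway limits itself through genes that it induces. Sprouty proteins, encoded by Spry2 and Spry4, restrain signalling to ERK, Dusp6 is a phosphatase that inactivates ERK, and Etv5 is an ETS transcription factor induced by FGF signals. In the skull roof the pathway is known for its part in growth at the sutures, the fibrous joints between the bones. Activating mutations of FGFR1, FGFR2 and FGFR3 cause human syndromes in which sutures fuse early.

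The start regions of Dusp6, Fgfr3 and Fgf10 are shown because the measurements below turn on these genes. Fgf10, a further ligand, comes from a wider list of pathway genes. Each window runs from 250 bases before to 50 bases after the annotated start (RefSeq, GRCm38.p6), 5′ to 3′, and for Fgfr3 the first of 2 listed starts was taken. Capitals mark GGAA or its reverse complement TTCC, the invariant core of ETS factor sites.
Dusp6, chr10:99262981-99263280, plus strand: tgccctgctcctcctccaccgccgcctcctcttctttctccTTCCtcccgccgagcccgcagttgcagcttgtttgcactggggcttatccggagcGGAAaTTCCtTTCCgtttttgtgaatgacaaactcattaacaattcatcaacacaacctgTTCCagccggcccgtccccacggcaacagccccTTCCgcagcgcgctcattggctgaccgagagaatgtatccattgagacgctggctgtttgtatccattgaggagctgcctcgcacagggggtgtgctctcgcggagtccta
Fgfr3, chr5:33721474-33721773, plus strand: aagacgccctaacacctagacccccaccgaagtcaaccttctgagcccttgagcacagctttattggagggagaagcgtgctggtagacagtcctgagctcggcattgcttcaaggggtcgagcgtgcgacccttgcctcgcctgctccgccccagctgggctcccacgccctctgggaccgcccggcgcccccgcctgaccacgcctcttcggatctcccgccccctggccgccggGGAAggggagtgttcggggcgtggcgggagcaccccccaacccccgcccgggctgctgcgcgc
Fgf10, chr13:118714449-118714748, plus strand: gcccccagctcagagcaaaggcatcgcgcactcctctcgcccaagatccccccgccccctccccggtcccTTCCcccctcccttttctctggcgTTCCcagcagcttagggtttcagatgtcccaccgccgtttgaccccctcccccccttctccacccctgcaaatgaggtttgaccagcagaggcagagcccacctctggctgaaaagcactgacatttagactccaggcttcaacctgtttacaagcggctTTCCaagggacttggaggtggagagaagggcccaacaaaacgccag
The Dusp6 window held 6 such cores, the Fgf10 window 3 and the Fgfr3 window 1, while the window of the second listed Fgfr3 start held 5. The core is short, and 96% of the 32851 annotated windows of 300 bases held at least 1. The longer ETS motif CCGGAA (14.9% of windows), the TCF/LEF motif CTTTGA (16.0%) and the RUNX motif TGTGGT (16.8%) were searched first, on both strands, and were found in none of these 3 windows. The shorter core was chosen after that result was seen.

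None of the 7 of these 10 genes that could be tested passed the test in any comparison of genotypes. To enter the test, a probe had to exceed its array's median at least 3 times in 15. The genes that met this filter were Fgfr1, Fgfr2, Fgfr3, Fgf9, Spry4, Dusp6 and Etv5. Fgf2, Fgf18 and Spry2 lay above the array median on 0 of 15 arrays, and their values below come from a fit without the filter. Over 8 comparisons the 7 genes gave 56 tests in limma, of which 0 passed an adjusted p of 0.05, and the smallest adjusted p was 0.149. The same comparisons called 31 of 9918 tested genes (0.313%) in A-KO against WT, 5 (0.0504%) in R-Het against WT and 187 (1.89%) in A-KO:R-Het against WT. When A-KO:R-Het was set against A-KO, 55 genes (0.555%) were called, and when it was set against R-Het, 0 (0.00%) were called, where 641 genes (6.46%) had an unadjusted p under 0.05. The averaged effect of Axin2 loss called 64 genes (0.645%), and that of Runx2 allele loss called 162 (1.63%). The interaction, which takes the A-KO:R-Het minus R-Het difference less the A-KO minus WT difference, called 0 (0.00%), and 611 genes (6.16%) had an unadjusted p under 0.05.

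What the arrays could resolve is set by the standard errors, which ran from 0.10 to 0.14 for the differences of the 7 genes from WT. Against WT, the log2 fold changes of the 7 genes ran from -0.34 to 0.38 in A-KO, from -0.16 to 0.26 in R-Het and, for A-KO:R-Het, from -0.24 to 0.26. Higher means than in WT were found for 6 of 7 genes in A-KO, 5 of 7 in R-Het and 6 of 7 in A-KO:R-Het, while 51.7%, 51.3% and 52.7% of all tested genes were higher. The median differences of the 7 genes were 0.17, 0.16 and 0.12, against 0.01, 0.00 and 0.01 over all tested genes. These 3 comparisons share the WT arrays, so a WT array that stands apart enters each of them.

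**Figure D1:**
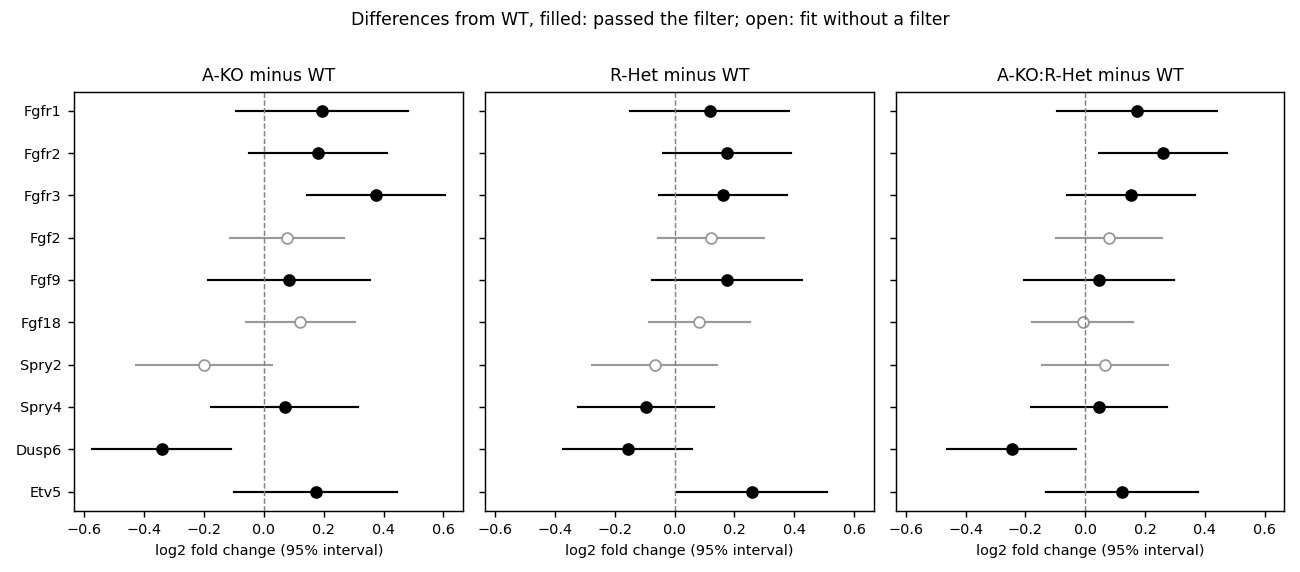
Log2 fold change against WT (x axis) with its 95% interval from limma for each of the 10 genes (y axis), 1 panel per genotype. Filled points passed the filter, and open points come from the fit without it. Fgfr3 lies highest at 0.38 and Dusp6 lowest at -0.34, both in A-KO.

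Among these 3 receptors, Fgfr3, which is known for restraining the growth of cartilage, had the largest difference from WT in A-KO. Its log2 intensity was 7.49, 7.51, 7.55 and 7.86 in WT and 7.89, 7.98 and 8.06 in A-KO. The groups did not overlap, although the highest WT array lay close under the lowest A-KO array. The difference was 0.38 ± 0.11 (SE, 95% interval 0.14 to 0.61), or 1.30-fold, and did not pass the test (limma, adjusted p = 0.149). In R-Het the values were 7.82, 7.86, 7.81 and 7.58, and in A-KO:R-Het they were 7.92, 7.71, 7.59 and 7.81. Those genotypes overlapped WT and each other. The interaction for Fgfr3 was -0.38 ± 0.15 with an adjusted p of 0.788, so the difference between its A-KO effect with intact Runx2 and that in Runx2+/- mice did not pass the test.

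The damaged A-KO array reads 7.21 for Fgfr3, below every array used. With that array kept, the A-KO difference was 0.18 ± 0.16 (adjusted p = 0.660). Without WT replicate 4, the highest WT array, the difference was 0.46 ± 0.10 (adjusted p = 0.0578). The second Fgfr3 probe lay above the array median on 0 of 15 arrays and gave 0.05 ± 0.10 for A-KO against WT.

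Fgfr2, known in the skull roof for acting in osteoprogenitor cells, had its highest mean in A-KO:R-Het. The 4 WT arrays read 8.58, 8.77, 8.54 and 8.96, and the 4 A-KO:R-Het arrays read 9.10, 8.91, 9.02 and 8.86. WT replicate 4 lay within the range of A-KO:R-Het, so the groups overlapped. The difference was 0.26 ± 0.10 (95% interval 0.05 to 0.47, adjusted p = 0.241). R-Het values were 8.91, 8.88, 9.0 and 8.78, and A-KO values were 8.79, 8.84 and 9.06. Their differences from WT were 0.17 ± 0.10 and 0.18 ± 0.11, with adjusted p of 0.633 and 0.515. The second Fgfr2 probe, which passed the filter, gave 0.08 ± 0.09 for A-KO:R-Het against WT, and the third lay above the array median on 0 of 15 arrays and gave 0.06 ± 0.13.

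Fgfr1, a receptor of mesenchyme and of bone-forming cells, varied more among WT arrays than between the genotype means. WT arrays read 7.67, 7.40, 7.97 and 7.80, R-Het arrays 7.70, 8.10, 7.89 and 7.63, A-KO arrays 7.79, 7.89 and 8.04, and A-KO:R-Het arrays 8.04, 7.92, 7.81 and 7.77. Every pair of neighbouring genotypes in the order of the means overlapped. The 95% intervals against WT were -0.09 to 0.48 in A-KO, -0.15 to 0.38 in R-Het and -0.09 to 0.44 in A-KO:R-Het. The second Fgfr1 probe lay above the array median on 1 array.

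**Figure D2:**
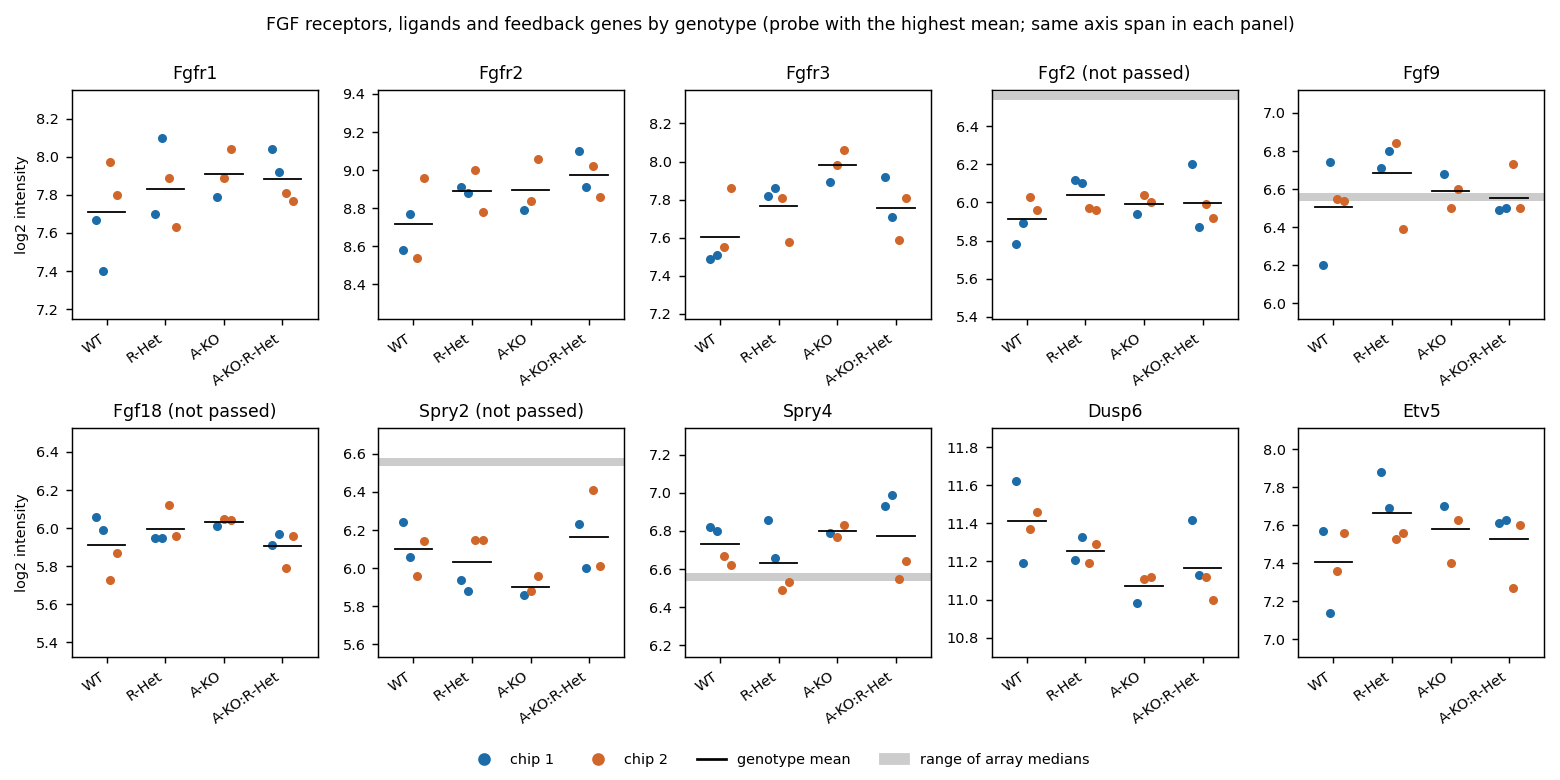
Log2 intensity (y axis) of the probe with the highest mean for each of the 10 genes, by genotype (x axis), with 1 point per array coloured by chip and a line at each genotype mean. The grey band is the range of array medians, and every panel spans the same log2 distance. Dusp6 is lowest and Fgfr3 highest in A-KO, and Fgf2, Fgf18 and Spry2 lie below the band.

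The ligands Fgf2, Fgf9 and Fgf18 lay at or below the middle of the array. Fgf9, a ligand that drives growth of skeletal mesenchyme, was above the array median on 9 of 15 arrays. Its log2 intensity was 6.20, 6.74, 6.55 and 6.54 in WT, 6.71, 6.80, 6.84 and 6.39 in R-Het, 6.68, 6.50 and 6.60 in A-KO, and 6.49, 6.50, 6.73 and 6.50 in A-KO:R-Het. The WT range alone took in every A-KO and A-KO:R-Het array. The largest difference from WT was 0.17 ± 0.12 in R-Het (95% interval -0.08 to 0.43, adjusted p = 0.704).

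Fgf2, a ligand stored in bone matrix, read between 5.78 and 6.20 on the 15 arrays, and its differences from WT ran from 0.08 to 0.12. Fgf18, a ligand of the skeleton that acts on osteoblasts and cartilage, read between 5.73 and 6.12. Its A-KO arrays read 6.01, 6.05 and 6.04 and its A-KO:R-Het arrays 5.91, 5.97, 5.79 and 5.96. Those groups did not overlap, with a difference of -0.13 ± 0.09 (adjusted p = 0.762 in the fit without a filter). Of the genes that passed the filter, which Fgf18 did not, 11.4% were separated in this comparison. At signals below the median of the array, a transcript that differs and a probe that reads mostly background cannot be told apart, so these values set no limit on either ligand.

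Dusp6, the ERK phosphatase, had the largest difference from WT among Spry2, Spry4, Dusp6 and Etv5. WT arrays read 11.62, 11.19, 11.37 and 11.46, and A-KO arrays read 10.98, 11.11 and 11.12. The A-KO arrays all lay below the lowest WT array. The difference was -0.34 ± 0.11 (95% interval -0.57 to -0.11), a level 1.27-fold lower in A-KO, and did not pass the test (adjusted p = 0.191). R-Het arrays read 11.21, 11.33, 11.19 and 11.29, and A-KO:R-Het arrays read 11.42, 11.13, 11.12 and 11.00. Both overlapped WT, with differences of -0.16 ± 0.10 (adjusted p = 0.683) and -0.24 ± 0.10 (adjusted p = 0.282). Averaged over the Runx2 genotypes, Axin2 loss gave -0.21 ± 0.07 (adjusted p = 0.219).

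The second Dusp6 probe also had its highest mean in WT. It read 10.26, 9.82, 9.53 and 9.61 in WT, 9.38, 9.63, 9.47 and 9.82 in R-Het, 9.17, 9.62 and 9.50 in A-KO, and 9.15, 9.38, 9.55 and 9.42 in A-KO:R-Het. The differences from WT were -0.38 ± 0.16 for A-KO and -0.43 ± 0.15 for A-KO:R-Het, with adjusted p of 0.359 and 0.214 when all filtered probes were tested singly, and these groups overlapped WT. Over the 15 arrays the first and the second probe had a Pearson r of 0.55, and of 0.23 after the genotype means were removed, given as a description. The third Dusp6 probe, above the array median on 5 arrays, gave -0.02 ± 0.14 for A-KO against WT. The damaged array reads 11.84 on the first probe, above every array used, and keeping it left a difference of -0.15 ± 0.16 (adjusted p = 0.728).

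**Figure D3:**
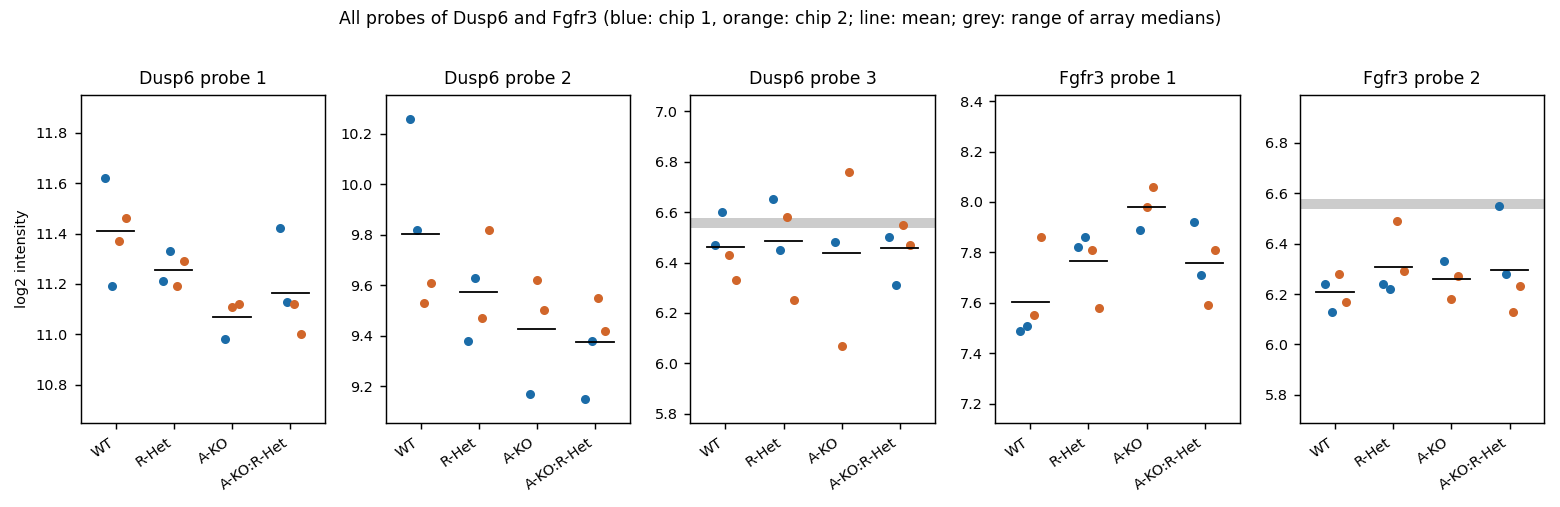
Log2 intensity (y axis) of the 3 Dusp6 probes and the 2 Fgfr3 probes by genotype (x axis), with 1 point per array and a line at the genotype mean. The first and the second Dusp6 probe have their highest mean in WT, the third lies at the array median, and A-KO is separated from WT on the first Dusp6 probe and the first Fgfr3 probe, not on the other 3.

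Fgfr3 and Dusp6 were the 2 of the 7 genes for which no A-KO array lay within the WT range, and 13.9% of all tested genes were separated in this way. None of the 7 was separated in the other pairwise comparisons that were run. The share of all tested genes separated there was 5.04% for R-Het against WT and 8.56% for A-KO:R-Het against WT. It was 11.4% for A-KO:R-Het against A-KO and 2.77% for A-KO:R-Het against R-Het. A-KO against R-Het was not run as a comparison, and its share over all genes was not computed. Fgfr3 (lowest A-KO array 7.89, highest R-Het array 7.86) and Dusp6 (highest A-KO array 11.12, lowest R-Het array 11.19) were separated there too. An unadjusted p under 0.05 was found for the same 2 genes in A-KO against WT, where 12.7% of all genes had one. It was found for Etv5 alone in R-Het against WT (9.24% of all genes) and for Fgfr2 and Dusp6 in A-KO:R-Het against WT (13.7%). Fgfr3 alone had one in the interaction (6.16%), and Fgfr3 and Dusp6 had one in the averaged effect of Axin2 loss (13.6%). None of the 7 had one in A-KO:R-Het against A-KO (10.8%), in A-KO:R-Het against R-Het (6.46%) or in the averaged effect of Runx2 allele loss (12.6%).

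Etv5 had its highest mean in R-Het. WT arrays read 7.57, 7.14, 7.36 and 7.56 and R-Het arrays 7.88, 7.69, 7.53 and 7.56, so the groups overlapped. The difference was 0.26 ± 0.12 (adjusted p = 0.528), with 0.43 on chip 1 and 0.09 on chip 2. A-KO arrays read 7.70, 7.40 and 7.63, and A-KO:R-Het arrays read 7.61, 7.63, 7.27 and 7.60. Their differences from WT were 0.17 ± 0.13 and 0.12 ± 0.12, and A-KO:R-Het replicate 3 lay well below the others of its genotype.

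Spry4 was above the array median on 13 arrays, and its arrays differed by chip. On chip 1 the values were 6.82 and 6.80 in WT, 6.86 and 6.66 in R-Het, 6.79 in A-KO, and 6.93 and 6.99 in A-KO:R-Het. On chip 2 they were 6.67 and 6.62, 6.49 and 6.53, 6.77 and 6.83, and 6.55 and 6.64 in the same order. Chip 1 was higher in WT, R-Het and A-KO:R-Het, without overlap, and not in A-KO. With chip as a block the A-KO difference from WT was 0.10 ± 0.09 and the A-KO:R-Het difference was 0.05 ± 0.08, against 0.07 ± 0.12 and 0.05 ± 0.11 without it.

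Spry2, below the array median throughout, read 6.24, 6.06, 5.96 and 6.14 in WT, 5.94, 5.88, 6.15 and 6.15 in R-Het, 5.86, 5.88 and 5.96 in A-KO, and 6.23, 6.0, 6.41 and 6.01 in A-KO:R-Het. Every A-KO:R-Het array lay above every A-KO array, with a difference of 0.27 ± 0.11 (adjusted p = 0.481 in the fit without a filter). In this comparison 11.4% of the genes that passed the filter, which Spry2 did not, were separated. The A-KO difference from WT was -0.20 ± 0.11 (adjusted p = 0.582). No pair of these 4 genes passed a test of relation over the arrays. The Spry2 probe may read mostly background, so pairs with Spry2 cannot show whether the genes vary together. Over the 6 pairs among Spry2, Spry4, Dusp6 and Etv5, Pearson's r over 15 arrays ran from -0.36 to 0.40, and Spearman's rho from -0.45 to 0.48. No pair passed 0.05 in a permutation test adjusted over the 6 pairs, with a smallest adjusted p of 0.450 for r and 0.219 for rho. After the genotype means were removed, r ran from -0.42 (Spry2 and Spry4) to 0.52 (Spry4 and Etv5), values that were not tested. Without the 2 arrays farthest from the median of the first gene of a pair, r ran from -0.23 to 0.53. Within chips, r of Spry2 and Spry4 was 0.43 over 7 arrays and -0.74 over 8.

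The other genes of the pathway were taken from a list of 70, of which 62 were on the array and 38 passed the filter. In the fit reported, 2 of the 38 were called in any comparison, both higher, and 0 were called lower. The tested genes were 1 further receptor, 8 ligands, 9 cofactors such as syndecans and glypicans, 8 transducers and 12 feedback or target genes. In A-KO against WT 1 of 38 was called, where 0.313% of all tested genes were called. In A-KO:R-Het against WT 1 of 38 was called (all genes 1.89%). In the averaged effect of Runx2 allele loss it was 1 of 38 (all genes 1.63%), and in the other 5 comparisons 0. An unadjusted p under 0.05 was found for 6 of 38 (15.8%) in A-KO against WT, 4 of them higher and 2 lower, where 12.7% of all tested genes had one. In R-Het against WT it was found for 4 (10.5%, all genes 9.24%), in A-KO:R-Het against WT for 6 (15.8%, all genes 13.7%), in A-KO:R-Het against A-KO for 7 (18.4%, all genes 10.8%) and in A-KO:R-Het against R-Het for 6 (15.8%, all genes 6.46%). In the interaction there were 4 (10.5%, all genes 6.16%), in the averaged effect of Axin2 loss 9 (23.7%, all genes 13.6%), of which 6 were lower, and in that of Runx2 allele loss 8 (21.1%, all genes 12.6%), of which 4 were lower.

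The signs of the 38 differences were even in some comparisons and uneven in others. In A-KO 19 were higher and 19 lower than in WT, with a median difference of 0.00. In A-KO:R-Het 20 were higher and 18 lower than in WT (median 0.02), and in R-Het 23 were higher and 15 lower (median 0.06). In the averaged effect of Runx2 allele loss 26 were higher and 12 lower (median 0.05), where 49.9% of all tested genes were higher, and in that of Axin2 loss 17 were higher and 21 lower (median -0.02), where 53.2% were higher.

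Fgf10, a ligand that signals from mesenchyme, rose in A-KO:R-Het. WT arrays read 6.83, 6.64, 6.56 and 6.81, near the array medians of 6.54 to 6.58. A-KO:R-Het arrays read 6.98, 7.21, 7.10 and 7.36, and the groups did not overlap, as was so for 8.56% of all tested genes. The difference was 0.45 ± 0.10, or 1.37-fold (adjusted p = 0.0241). All Fgf10 values given are from its probe with the highest mean, and its other probes are not reported here. R-Het arrays read 6.96, 7.22, 7.15 and 7.13, also all above WT, where 5.04% of all tested genes were separated. The R-Het difference of 0.41 ± 0.10 did not pass (adjusted p = 0.130). A-KO arrays read 6.83, 6.97 and 7.0, with a difference of 0.22 ± 0.10 (adjusted p = 0.387). Averaged over the Axin2 genotypes, Fgf10 was higher by 0.32 ± 0.07 with Runx2 allele loss (limma, adjusted p = 0.0335). The difference of A-KO:R-Het from A-KO was 0.23 ± 0.10 and did not pass (adjusted p = 0.449).

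The Runx2 call for Fgf10 was lost under 15 of 29 alternatives, while the difference stayed between 0.28 and 0.35. Among these were 10 of the 15 single arrays left out, the muscle covariate (0.30 ± 0.07, adjusted p = 0.0539) and the cartilage covariate (0.34 ± 0.13, adjusted p = 0.327). The cartilage mean itself differed by genotype, from -0.67 in A-KO to 0.62 in A-KO:R-Het. With it as a covariate the Runx2 comparison called 3 of 9918 genes, against 162 without it, so that loss is not particular to Fgf10. Beside the Runx2 call for Fgf10, 10 of 14 cartilage markers were called higher and 4 of 9 osteoclast markers lower with Runx2 allele loss. The median differences were 0.88 and -0.32 over each list. Of the suture and cranial mesenchyme markers 1 of 8 was called higher (3 by unadjusted p, median 0.18). Of the endothelium markers 0 of 7 were called (3 by unadjusted p), and of the meninges and brain markers 0 of 4 (3).

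The A-KO:R-Het difference of Fgf10 from WT was 0.36 on chip 1 alone and 0.55 ± 0.13 on chip 2 alone. It was not called on chip 2 (adjusted p = 0.189), where this comparison called 1 of 9918 genes, so that loss is not particular to Fgf10. The call was also lost without WT replicate 2 (adjusted p = 0.0648) or 3 (0.0786), or leaving out A-KO:R-Het replicate 2 (0.0599), 3 (0.0576) or 4 (0.0831). The difference stayed between 0.39 and 0.51 over all single arrays left out.

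Ccnd1, which encodes cyclin D1 and responds to FGF as well as Wnt signals, rose in A-KO. WT arrays read 10.76, 10.59, 11.01 and 10.87, and A-KO arrays read 11.52, 11.35 and 11.35, with no overlap, as was so for 13.9% of all tested genes. The difference was 0.60 ± 0.11, or 1.51-fold (adjusted p = 0.0434). Its differences from WT were 0.30 ± 0.11 in R-Het (adjusted p = 0.369) and 0.33 ± 0.11 in A-KO:R-Het (adjusted p = 0.140). The A-KO call was lost under 15 of 30 alternatives, among them with the damaged array kept (0.66, adjusted p = 0.0853). Leaving out a single array ended it for WT replicates 1 and 2, A-KO replicates 1, 3 and 4, and A-KO:R-Het replicates 3 and 4, with differences from 0.52 to 0.66 over all arrays left out and adjusted p up to 0.261. Within chips the difference was 0.84 on chip 1 and 0.41 on chip 2.

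Further genes of the list ranked high by p and did not pass the test. Spred1, an inhibitor of Ras signalling related to the Sprouty genes, differed by -0.35 ± 0.10 in A-KO against WT (adjusted p = 0.161). Errfi1, an inhibitor of the EGF receptor that growth factors induce, differed by -1.04 ± 0.42 in A-KO against WT (adjusted p = 0.319). Dusp4, another phosphatase of the ERK family of kinases, differed by -0.38 ± 0.11 in A-KO:R-Het against WT (adjusted p = 0.0895). Fgfrl1, a receptor that lacks the kinase domain, read 8.39, 8.20, 8.49 and 8.55 in A-KO:R-Het and 7.91, 8.11 and 7.91 in A-KO. These groups did not overlap, as was so for 11.4% of all tested genes, and the difference was 0.43 ± 0.12 (adjusted p = 0.134). Fgf7, a ligand for an epithelial form of Fgfr2, differed by 0.43 ± 0.13 in R-Het against WT (adjusted p = 0.243) and by -0.54 ± 0.13 in A-KO:R-Het against R-Het (adjusted p = 0.574).

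**Figure D4:**
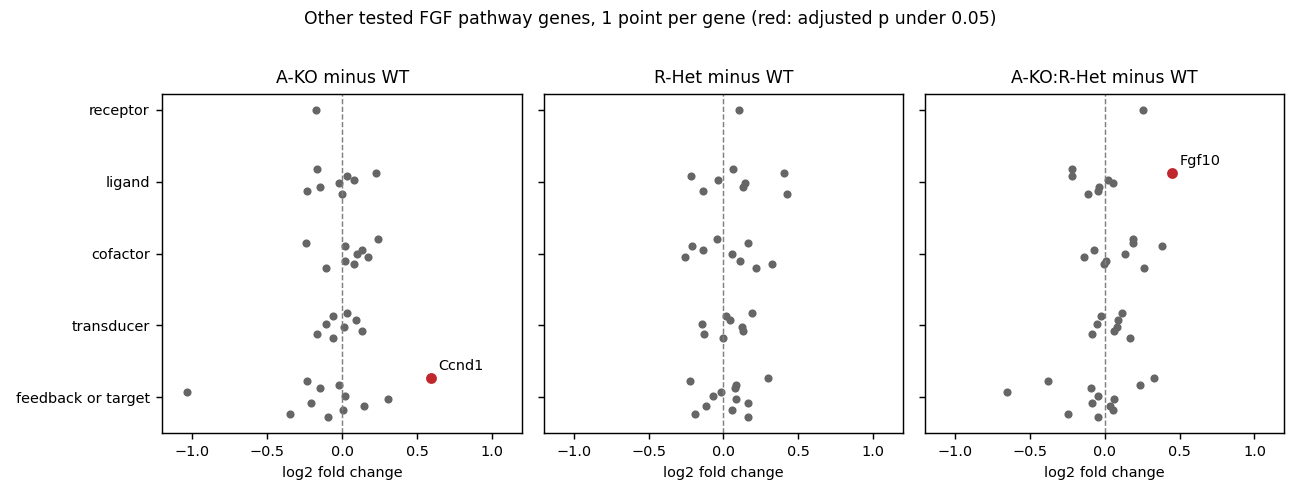
Log2 fold change against WT (x axis) of the 38 other tested FGF pathway genes, 1 point per gene, by role (y axis) and genotype (panels). Red points passed an adjusted p of 0.05: Ccnd1 in A-KO (0.60) and Fgf10 in A-KO:R-Het (0.45).

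The calvaria held tissue whose markers moved with genotype or varied between mice. In such bulk samples fewer cells of a type and less RNA per cell cannot be told apart. Of 11 osteoblast and bone matrix markers 10 were tested and 0 were called in any comparison by limma (at most 2 had an unadjusted p under 0.05), with Bglap, Col1a2 and Bglap2 at the highest signals. The sources used here do not place the 1 Axin2 probe relative to the deleted part, so its differences check no label. They were -0.19 ± 0.12 in A-KO against WT (adjusted p = 0.549) and -0.47 ± 0.11 in A-KO:R-Het against R-Het (adjusted p = 0.602). Averaged over the Runx2 genotypes, Axin2 loss gave -0.33 ± 0.08 for this probe (adjusted p = 0.0821). Runx2 is not analysed here.

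Beside the A-KO differences of Fgfr3, Dusp6 and Ccnd1, 5 of 6 B cell markers were called lower in A-KO, with a summed intensity of 502 to 603 against 1001 to 1459 in WT. Of the 4 tested erythroid markers 0 were called, yet all 4 had an unadjusted p under 0.05, with a median difference of -1.09 and a summed intensity of 631 to 1023 in A-KO against 2690 to 4335 in WT. Of the 11 tested neutrophil markers 0 were called and 8 had an unadjusted p under 0.05, with a median of -0.85 and a summed intensity of 6029 to 10003 against 11397 to 20532. Blood cell markers of all 3 kinds were thus at lower summed levels on every A-KO array than on any WT array. Of the 14 tested cartilage markers 0 were called in A-KO against WT (3 had an unadjusted p under 0.05), and their summed intensity was 8389 to 11290 in A-KO and 9630 to 23636 in WT. With the cartilage mean as a covariate, Fgfr3 differed by 0.43 ± 0.12 and Dusp6 by -0.35 ± 0.12. Ccnd1 then differed by 0.52 ± 0.12 and was no longer called (adjusted p = 0.0811). The cartilage mean was -0.31 in WT and -0.67 in A-KO, so cartilage content and genotype cannot be fully told apart by this fit. The part of the B cell, erythroid and neutrophil markers in these differences was not tested.

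Beside the A-KO:R-Het differences of Fgf10 and Fgfr2, 4 of 14 cartilage markers were called higher than in WT and 12 had an unadjusted p under 0.05. The median difference of the list was 0.98, and its summed intensity was 19448 to 45156 against 9630 to 23636 in WT. In the same comparison 2 of 8 suture and cranial mesenchyme markers (4 by unadjusted p) and 2 of 4 meninges and brain markers (2) were called higher, and 4 of 9 osteoclast markers (6) were called lower. Of the neutrophil markers 0 of 11 were called (9 by unadjusted p, median -0.97), and of the B cell markers 0 of 6 (6, median -0.55). With the cartilage mean as a covariate Fgf10 differed by 0.48 ± 0.15 (adjusted p = 0.179) and Fgfr2 by 0.10 ± 0.15 (adjusted p = 0.828). The cartilage mean itself differed by genotype (-0.31 in WT and 0.62 in A-KO:R-Het). Cartilage content and genotype therefore cannot be fully told apart by this fit. The part of the other lists was not tested.

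Of the 16 tested skeletal muscle markers 0 were called in any comparison, and 0 had an unadjusted p under 0.05, yet their summed intensity ran from 19667 to 127588 within WT, from 4537 to 127555 within R-Het, from 12265 to 57865 within A-KO and from 4633 to 61250 within A-KO:R-Het. The 3 arrays highest in muscle genes were R-Het replicate 4 and WT replicates 1 and 3. WT replicates 1 and 3 were the lowest WT arrays for Fgfr2, and R-Het replicate 4 was the lowest R-Het array for Fgfr2 and Fgfr3. Without these 3 arrays the Fgfr2 difference of A-KO:R-Het from WT was 0.11 ± 0.11, the A-KO difference of Fgfr3 was 0.29 ± 0.13 that of Dusp6 was -0.26 ± 0.13 and that of Ccnd1 was 0.67 ± 0.14, no longer called (adjusted p = 0.139). Fgf10 then differed by 0.44 ± 0.12 in A-KO:R-Het and was not called (adjusted p = 0.170).

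**Figure D5:**
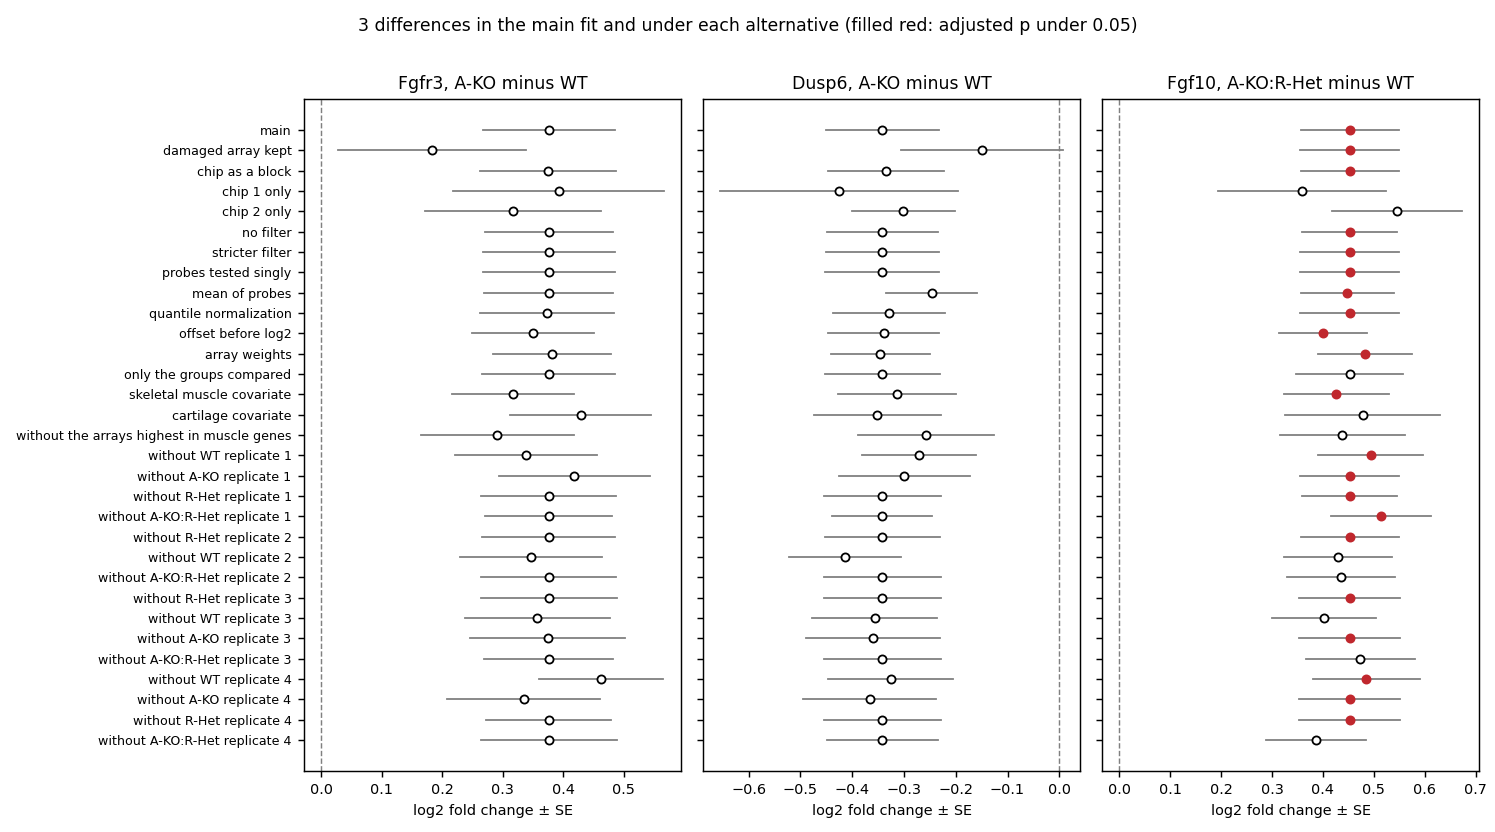
Log2 fold change ± SE (x axis) of Fgfr3 and Dusp6 in A-KO against WT and of Fgf10 in A-KO:R-Het against WT, in the fit reported and under each alternative (y axis). Filled red points passed an adjusted p of 0.05. Fgfr3 stays between 0.18 and 0.46 and Dusp6 between -0.42 and -0.15 with 0 calls, and Fgf10 stays between 0.36 and 0.55 and is called under 20 of 30 alternatives.

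The tested genes most like each member over the 15 arrays were found by Pearson's r, as a description of arrays that share chips and tissue content. Spred1 was the second most like Dusp6 (r = 0.82, and 0.62 after the genotype means were removed), between the metallothionein Mt1 (0.84) and Abcc9 (0.81). Fgfr1 was nearest to Eif3f (0.85), Tctn2 (0.85) and Pcolce (0.80). Fgfr2 was nearest to Cachd1 (0.84), Chst8 (0.79) and Edil3 (0.79), and Fgfr3 to Gnl3l (0.83), Pdlim4 (0.83) and Pitpnb (0.82). Spry4 was nearest to Mras (0.81), a Ras-related GTPase, then Tubb6 (0.76) and Sart1 (0.75). Etv5 was nearest to G3bp1 (0.83), Fbxw8 (0.82) and Ppfia3 (0.82), and Fgf9 to Mrgpra2b (0.77), Gtf3c4 (0.76) and Abhd2 (0.75).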

How the data were processed

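Total RNA of calvaria from 16 mice was converted to labelled cRNA and hybridised to 1-colour Illumina bead arrays on 2 chips, with 4 arrays of each genotype, per the labels' protocols. The values used are the authors' deposited intensity values, normalized and linear. The method of background correction and normalization was not given in the sources used here. Array medians lay between 92.9 and 95.5. A further table with 32 columns of scanner values that match no sample label was not used.

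The intensities were taken to log2 (computed here). Of 25697 probes, 23978 had 1 gene symbol in the platform annotation, 0 several and 1719 none. Probes above the median of their array on at least 3 of 15 arrays were kept (13381 named probes), and the probe with the highest mean represented each of 9918 genes. Limma 3.58.1 in R 4.3.3 fitted 1 mean per genotype, with empirical Bayes moderation, Benjamini-Hochberg adjustment over all genes tested and a threshold of 0.05. Other probes of a gene came from fits to all filtered probes or to all named probes. The number of arrays limits the precision. The fit was tested on simulated data. Replicates are separate mice, numbered in record order and not paired. Genes named are the 10 members, for each comparison up to 5 pathway genes of smallest p and those past the threshold, and for each tested member the 3 genes of highest r. Permutation tests of the 6 feedback pairs drew 100000 resamples and were two-sided. Members, lists and tests were chosen with earlier results of these data known. Alternatives covered the damaged array, chip, filter, probe rule, normalization, offset of 16 before log2, array weights, arrays in the fit, muscle and cartilage content, and each array left out in turn.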

Additional observations from a re-analysis of the deposited data

Results flagged for a closer look

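Among 57 groups of 4 arrays (each gene's probes in WT, R-Het and A-KO:R-Het), 5 held an array whose gap to the nearest other exceeded Dixon's 95% critical value as a share of the group's range, and chance gives about 1 in 20 such groups. For Fgfr3, WT replicate 4 read 7.86 in log2 intensity against 7.49 to 7.55 in the other WT arrays, and R-Het replicate 4 read 7.58 against 7.81 to 7.86. For Etv5, A-KO:R-Het replicate 3 read 7.27 against 7.60 to 7.63. For Fgf9, A-KO:R-Het replicate 3 read 6.73 against 6.49 to 6.50. For Fgf18, which lay below the array median, R-Het replicate 3 read 6.12 against 5.95 to 5.96.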

How the results depend on the processing

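The count of genes called among Fgfr1, Fgfr2, Fgfr3, Fgf2, Fgf9, Fgf18, Spry2, Spry4, Dusp6 and Etv5 stayed at 0 in all 8 comparisons under every alternative run, single arrays left out included. Fgf2, Fgf18 and Spry2 entered only the fit without the filter, so for them the count under the other alternatives was fixed by the filter. Fgf9 and Spry4 did not enter under the stricter filter. Calls among the other pathway genes were less stable, and the cause was not tested. In A-KO against WT the 1 called gene, Ccnd1, became 0 with the damaged array kept, on chip 1 or chip 2 alone, with the stricter filter, with the mean of probes, with only the groups compared, with the cartilage covariate and after removal of the 3 muscle-high arrays, and the count ran from 0 to 1 over single arrays left out. In A-KO:R-Het against WT the 1 called gene, Fgf10, became 0 on either chip alone, with only the groups compared (adjusted p = 0.0760), with the cartilage covariate and without the muscle-high arrays, became 2 with Dusp4 under the chip block and array weights, and ran from 0 to 2 over single arrays left out. In A-KO:R-Het against A-KO array weights gave 1 gene, Fgfrl1, in place of 0. In the averaged effect of Axin2 loss, array weights and the cartilage covariate gave 1, Ccnd1, in place of 0. In the averaged effect of Runx2 allele loss the 1 called gene, Fgf10, became 0 on either chip alone, with the muscle covariate (adjusted p = 0.0539), with the cartilage covariate and without the muscle-high arrays, became 2 with Fgfrl1 under array weights, and ran from 0 to 1 over single arrays, with the call lost without A-KO replicates 1, 3 or 4, R-Het 2 or 3, WT 2 or 3, or A-KO:R-Het 2, 3 or 4. The calls over all genes ran from 0 to 119 (31 reported) in A-KO against WT, 0 to 17 (5) in R-Het, 0 to 351 (187) in A-KO:R-Het, 0 to 163 (55) against A-KO, 0 to 218 (64) for Axin2 loss and 1 to 326 (162) for Runx2 allele loss. On chip 2 alone the fit called 0 of 9918 genes in A-KO against WT, 1 in A-KO:R-Het against WT and 1 for Runx2 allele loss. Calls lost on chip 2 alone are thus not particular to Ccnd1 or Fgf10. With the cartilage covariate the same comparisons called 14, 51 and 3 genes. No paired analysis was possible because the labels carry no replicate numbers. Signals near the array median limit what can be read from Fgf2, Fgf9, Fgf18, Spry2 and Spry4, and from Fgf10 in WT.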
